A study of Mus musculus with 12 samples.

Results

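Atm, Atr, Atrip, Topbp1, Clspn, Chek1, Chek2, Mdc1, Rnf8 and Rnf168 encode the kinases that sense broken DNA and stalled replication forks and the mediators that pass the signal on. These 10 genes, chosen by symbol for this role, were read from tables of 25078 genes in 12 RNA sequencing libraries of mouse LSK cells. LSK cells are lineage-negative, Sca1-positive, c-Kit-positive bone marrow cells, which include hematopoietic stem cells and multipotent progenitors. Of the 10 genes, 9 passed the filter on low counts, as did 14599 genes in all, and Atrip had 0 counts in every library.

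Cells came from preleukemic mice that carry Cbfb-MYH11 (CM), a fusion made by the inv(16) rearrangement of acute myeloid leukemia, and from wild-type (WT) mice, which the titles call control. The genotype label is WT for all 3 of these animals, but in the library names only animal 2 carries WT, with C for animals 1 and 3. What C stands for is not stated. After sorting, cells received 3.5 Gy ex vivo (IR) or went through the incubation unirradiated (NIR), and all were harvested at 24 h, giving the groups CM IR, CM NIR, WT IR and WT NIR with 3 libraries each. By the animal numbers in the labels, each of the 6 animals, 3 CM and 3 WT, gave 1 IR and 1 NIR library. The sources used here do not give how the fusion was switched on, or the strain and age of the mice. The comparisons asked whether transcripts of these genes differed 24 h after irradiation, between the genotypes, and in their irradiation response between the genotypes.

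ATM, a very large kinase of the phosphatidylinositol 3-kinase-like family, is activated at double-strand breaks, whereas its relative ATR, held by its partner ATRIP, is recruited to single-stranded DNA at stalled forks. TOPBP1 activates ATR, Claspin (Clspn) brings the kinase CHK1 (Chek1) to ATR, and CHK2 (Chek2) is a main substrate of ATM. MDC1 binds phosphorylated histone H2AX beside a break and recruits the ubiquitin ligases RNF8 and then RNF168, which mark the surrounding chromatin for repair factors. All of these proteins are regulated largely by phosphorylation, localization and turnover, none of which transcript counts measure.

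Total gene counts were 68.5 to 110.8 M per library. The LSK markers Kit (148 to 284 CPM), Ly6a (42.0 to 457 CPM) and Cd34 (230 to 744 CPM) were present in all 12 libraries, CPM (counts per M, scaled between libraries) being the unit of every level unless RPKM is named. The hemoglobin genes Hbb-bt and Hba-a1 were at 0 in all 12, and the T cell gene Cd3e reached at most 0.389 CPM. Other genes of their lists were detected. The erythroid list of 6 genes summed to 2.97 CPM (WT IR 2) to 79.6 CPM (WT NIR 1). The T and NK cell list of 6 genes summed to 7.4 CPM (CM NIR 3) to 39.7 CPM (CM IR 2). CM IR 1, CM NIR 1 and CM NIR 3, named by animal number, stood apart, at -78.8 to -75.0 on a first principal component with 51.5% of the variance, where the other 9 lay between -8.92 and 45.1. Those 3 libraries summed to 1100 to 1516 CPM over 5 genes of a mast cell and basophil list led by Mcpt8 and Cpa3. CM IR 3 held 803 CPM, and the other 8 libraries 137 to 404 CPM. The list does not separate mast cells from basophils, and its gene Cma1 reached only 0.461 to 16.9 CPM. In the same 3 libraries the macrophage list (C1qa, C1qb and 3 more) summed to 1083 to 1274 CPM. Elsewhere it summed to 219 to 828 CPM, with none of its 5 genes at 0. Neutrophil list sums (S100a8, S100a9 and 4 more) were 7.92 to 89.5 CPM in CM libraries and 111.3 to 314.5 CPM in WT libraries. In bulk RNA, fewer cells of a type and less RNA per cell cannot be told apart. Irradiation registered in the p53 target Trp53inp1, at 45.2 ± 7.28 CPM in CM IR and 17.2 ± 1.35 CPM in CM NIR, and at 84.1 ± 3.86 CPM in WT IR and 19.7 ± 0.935 CPM in WT NIR (SD, n = 3). Its log2 fold changes were 1.39 ± 0.12 in CM and 2.10 ± 0.12 in WT (SE, edgeR adjusted p = 0.00421 and 8.75e-05), and the change in CM did not pass with the animal as a block (adjusted p = 0.0997). Averaged over the genotypes, Mdm2, the ubiquitin ligase for p53, rose by a log2 of 0.53 ± 0.07 (edgeR adjusted p = 0.00916), and Cdkn1a, the p21 inhibitor of cyclin-dependent kinases, was 0.87 ± 0.19 higher without passing (adjusted p = 0.146, and 0.0379 with the animal as a block). Without WT NIR 3 the averaged change of Mdm2 missed the threshold (adjusted p = 0.0531), as did that of Trp53inp1 in CM without CM NIR 3 (adjusted p = 0.0523).

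The 9 detected genes covered a wide span of levels. In RPKM, which corrects for exon length so that genes can be set side by side, Topbp1 averaged 76.2 ± 7.99 over the 12 libraries (SD) and stood above 93.6% of the genes tested. Clspn at 25.3 ± 1.72 RPKM and Mdc1 at 23.7 ± 2.30 RPKM came next, then Chek2 (18.9 ± 1.64 RPKM) and Rnf168 (18.7 ± 1.78 RPKM). Among the kinases, Atr averaged 15.01 ± 2.56 RPKM, Chek1 14.9 ± 2.49 RPKM and Atm 13.1 ± 2.99 RPKM. Rnf8 was by far the lowest, at 1.14 ± 0.168 RPKM. The ranges over libraries did not overlap between Topbp1 and Clspn or between Atm and Rnf8, and overlapped between all other neighbours in this order. Compared within a library, Mdc1 also lay above Chek2, and Rnf168 above Atr, in all 12 libraries.

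Variation between libraries differed from gene to gene. Atm varied most, with an SD of log2 CPM of 0.341 and a 1.89-fold range in RPKM. Atr (0.243) and Chek1 (0.242) followed, and Clspn varied least (0.0995). These SDs exceeded those of 60.1% of all genes tested for Atm, 46.3% for Atr, 46% for Chek1 and 6.82% for Clspn. Atr and Chek1, the kinase and its main substrate, also had the most alike profiles of any 2 of the 9 genes, with a root mean square difference of 0.0656 in centred log2 CPM over the 12 libraries. Among all genes other than these, the closest profiles to Atr were Zbtb44 (0.0397) and Dcaf1 (0.0457), and to Chek1 Rif1 (0.0522) and S100pbp (0.0540), out of 9981 genes of at least 5 CPM. Atm lay closest to Nkrf (0.0571) and Zfp280c (0.0617), and Rnf8 to E2f4 (0.0668) and Brf1 (0.0713).

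**Figure D1:**
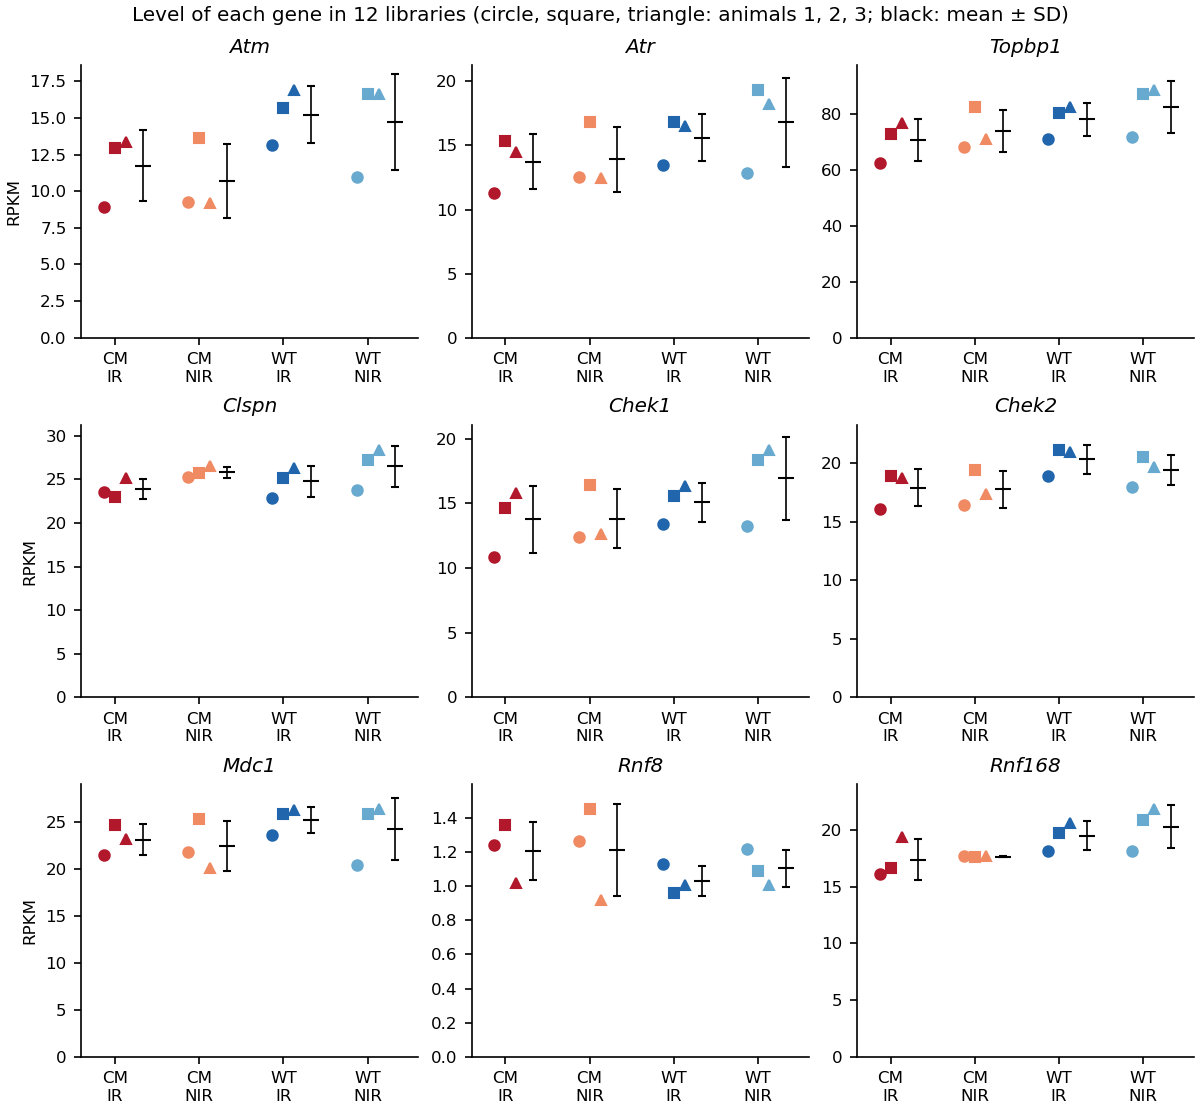
RPKM of the 9 detected genes (y axis, from 0) in the CM IR, CM NIR, WT IR and WT NIR groups, with 1 point per library, shaped by animal number, and the mean ± SD of 3 libraries beside them. Topbp1 reaches 62.4 to 88.4 RPKM and Rnf8 0.919 to 1.45 RPKM, and IR overlaps NIR in each genotype, and CM overlaps WT in each treatment, except for Clspn in CM and Rnf168 without irradiation.

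Atrip and Rnf8 are read with care because each shares its locus with a same-strand gene model. Atrip (mm10, chromosome 9, 109059747 to 109074124, minus strand) lies almost wholly inside the read-through model Atrip-trex1 (109057933 to 109074097), which had 22 to 63 counts per library, and Trex1, the exonuclease gene at its other end, was at 0 in 11 of 12 libraries and at 1 count in the other. In the whole table, 905 of 1887 genes with at least 90% of their span inside another gene of the same strand were at 0 in all 12 libraries (48.0%), against 3448 of 23191 other genes (14.9%). How reads shared by 2 genes were counted is not given in the sources used here, so the 0 for Atrip is not read as absence of the transcript. Rnf8 (chromosome 17, 29614789 to 29641664, plus strand) starts at the same base as the longer Gm28043, which had 111 to 184 counts per library beside 144 to 242 for Rnf8. The level of Rnf8 is uncertain for the same reason. Atr (chromosome 9, 95857597 to 95951644, plus strand) overlaps only the start of the antisense gene 1700065D16Rik, with 6 to 29 counts per library against 7333 to 15288 for Atr.

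Irradiation left the transcript levels of the apical kinases within the spread between animals. Atm lies on chromosome 9 (53437122 to 53536671, minus strand). It stood at 107.9, 155.6 and 163.5 CPM in CM IR animals 1, 2 and 3, against 113.3, 165 and 112.1 CPM in CM NIR. In WT IR it stood at 158.3, 188.7 and 204.3 CPM, against 133.7, 200.5 and 201.5 CPM in WT NIR. Atm was lower after irradiation in 3 of the 6 animals and higher in 3, and IR and NIR overlapped in both genotypes. Its log2 fold change was 0.13 ± 0.22 in CM (SE, 95% interval -0.36 to 0.62) and 0.04 ± 0.22 in WT (-0.45 to 0.53), with edgeR adjusted p = 1 in each. Atr had 92.1, 125 and 119.5 CPM in CM IR against 103.4, 137.8 and 102.1 CPM in CM NIR, and 110, 137.4 and 134.5 CPM in WT IR against 105.7, 157.4 and 149.1 CPM in WT NIR. It was lower in 4 of 6 animals, with fitted changes of -0.03 ± 0.18 in CM and -0.11 ± 0.18 in WT.

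Of the activators of ATR signalling, Clspn was the gene with the most uniform shift. Its levels were 118.6, 115.3 and 128.2 CPM in CM IR animals 1, 2 and 3, against 129.1, 129.8 and 134.7 CPM in CM NIR. In WT IR they were 115, 126.6 and 132.4 CPM, against 121.1, 136.9 and 143.4 CPM in WT NIR. All 6 animals had less Clspn after irradiation, by 0.071 to 0.171 in log2 CPM, and the 3 CM IR libraries lay below the 3 CM NIR libraries without overlap. Among all genes tested, 6.58% were lower in all 6 animals. In CM 0.986% were lower and 1.57% higher without overlap, and Clspn was the 1 of the 9 genes to do so. In WT, IR and NIR overlapped for all 9 genes, where 6.63% of all genes were lower and 7.47% higher without overlap. Higher levels in all 6 animals, found in 5.93% of all genes tested, occurred in none of the 9 genes. Averaged over the genotypes, the fitted log2 change of Clspn was -0.11 ± 0.06 (SE, 95% interval -0.25 to 0.03), which did not pass in edgeR (unadjusted p = 0.101, adjusted p = 1). With the animal as a block it was -0.11 ± 0.03 (unadjusted p = 0.00662, adjusted p = 0.122).

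Topbp1 (chromosome 9, 103305327 to 103350427, plus strand) was lower in 5 of 6 animals. It had 322.1, 374.2 and 401 CPM in CM IR against 357.3, 426.4 and 369 CPM in CM NIR, and 366.8, 414.1 and 426.1 CPM in WT IR against 373.3, 449.4 and 457.3 CPM in WT NIR. Only CM animal 3 had more of it after irradiation. The averaged log2 change was -0.08 ± 0.08 (adjusted p = 1 in edgeR).

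The promoter of Clspn is shown because Clspn was the gene lower in every animal, with shorter windows of the 3 others of the 10 promoters that hold the same motif. All 10 genes matched the RefSeq promoter table for GRCm38.p6 (mm10) by symbol, each with 250 bases before the start and 50 after it. In the Clspn promoter, chr4:126556730-126557029 on the plus strand, capitals mark an E2F core motif (GCGCGAAA) and a pair of inverted CCAAT boxes (ATTGG):
Clspn: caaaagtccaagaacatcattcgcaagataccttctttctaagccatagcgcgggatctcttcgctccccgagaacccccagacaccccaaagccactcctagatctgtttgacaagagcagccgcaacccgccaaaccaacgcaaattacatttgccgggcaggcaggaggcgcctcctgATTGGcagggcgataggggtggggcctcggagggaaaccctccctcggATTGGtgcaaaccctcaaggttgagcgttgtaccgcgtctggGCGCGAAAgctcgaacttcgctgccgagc
In windows of 40 bases, the E2F core of Topbp1 lies in chr9:103305182-103305221, that of Chek2 in chr5:110839815-110839854 and that of Mdc1 in chr17:35841466-35841505, all on the plus strand:
Topbp1: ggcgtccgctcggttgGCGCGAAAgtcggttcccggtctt
Chek2: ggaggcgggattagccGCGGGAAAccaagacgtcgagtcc
Mdc1: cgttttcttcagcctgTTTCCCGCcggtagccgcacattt
The E2F family controls many genes of the G1 to S transition. The letters searched on both strands were TTTCCCGC, TTTGGCGC, TTTCGCGC and TTTGCCGC, found in 4 of the 10 promoters, against 2.26% of 32851 promoters and 3.79% of the 14443 promoters of genes tested here. CCAAT occurred in 6 of the 10 (37.4% of all promoters), and the cell cycle element TTTGAA only in that of Rnf8 (17.9% of all). Of the 4 genes with an E2F core, Clspn and Topbp1 were lower after irradiation in 6 and 5 of 6 animals, and Chek2 and Mdc1 in 2 and 4. Of the tested genes without a match, Rnf8 and Rnf168 were lower in 5 animals each, Atr and Chek1 in 4 each and Atm in 3. The match is a description of letters, and other spellings of an E2F site were not searched.

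The checkpoint effector kinases overlapped between IR and NIR in both genotypes. Chek1 (chromosome 9, 36708482 to 36726658, minus strand) had 37.3, 50.1 and 54.9 CPM in CM IR against 43.0, 56.5 and 43.5 CPM in CM NIR. It had 46.0, 53.2 and 56.1 CPM in WT IR against 46.0, 62.9 and 65.8 CPM in WT NIR. Chek1 was lower in 2 of 3 animals of each genotype, with fitted changes of -0.01 ± 0.18 in CM and -0.17 ± 0.18 in WT. Chek2 (chromosome 5, 110839983 to 110874141, plus strand) ranged from 37.2 to 43.9 CPM in CM IR and 38.5 to 45.2 CPM in CM NIR, and from 43.6 to 48.9 CPM in WT IR and 42.1 to 47.3 CPM in WT NIR. It was higher in all 3 WT animals, as were 19.9% of all genes tested, and in 1 of 3 CM animals.

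The mediators at the break site overlapped between IR and NIR as well. Mdc1 (chromosome 17, 35841498 to 35859670, plus strand) averaged 172 ± 11.9 CPM in CM IR and 167.5 ± 19.2 CPM in CM NIR, and 187 ± 10.3 CPM in WT IR and 180 ± 23.4 CPM in WT NIR (SD, n = 3 each). Rnf168 (chromosome 16, 32277461 to 32301439, plus strand) had 72.6, 75.1 and 88.7 CPM in CM IR against 80.8, 79.8 and 80.4 CPM in CM NIR, and 81.8, 88.9 and 93.2 CPM in WT IR against 82.9, 94.1 and 98.8 CPM in WT NIR. Rnf168 was lower in 5 of 6 animals by at most 0.155 in log2 CPM. Rnf8 averaged 2.54 ± 0.343 CPM in CM IR and 2.56 ± 0.569 CPM in CM NIR, and 2.17 ± 0.183 CPM in WT IR and 2.33 ± 0.236 CPM in WT NIR.

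None of the 9 genes passed edgeR's test at an adjusted p under 0.05 in CM, in WT or averaged, where 0.00685%, 0.116% and 0.308% of all genes tested did. At an unadjusted p under 0.05 the count was also 0 in each, against 1.62%, 4.05% and 5.19% of all genes, and DESeq2 and limma-voom called 0 as well. With the animal as a block 0 passed, against 0%, 1.12% and 2.07% of all genes, and Clspn alone had an unadjusted p under 0.05, as had 6.61%, 13.5% and 17% of all genes. In each of these contrasts 6 of the 9 were fitted below 0, against 50.4%, 52.6% and 50.9% of all genes. Fitted log2 changes ran from -0.12 to 0.13 in CM and from -0.17 to 0.06 in WT, with medians of -0.01 and -0.08, against -0.00123 and -0.00885 over all genes. In the fit without an animal term, which leaves out the pairing, the averaged 95% intervals of all 9 genes lay within a 1.5-fold change either way. They ran from 0.767-fold to 1.35-fold. In CM alone that held for 8, the upper bound of Atm being 1.53-fold. With the animal as a block the interval of Atm in CM was narrower, at -0.18 to 0.44 in log2. That of Clspn then lay below 0, at -0.22 to -0.02 in CM, -0.20 to -0.004 in WT and -0.18 to -0.04 averaged, before adjustment over all genes.

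**Figure D2:**
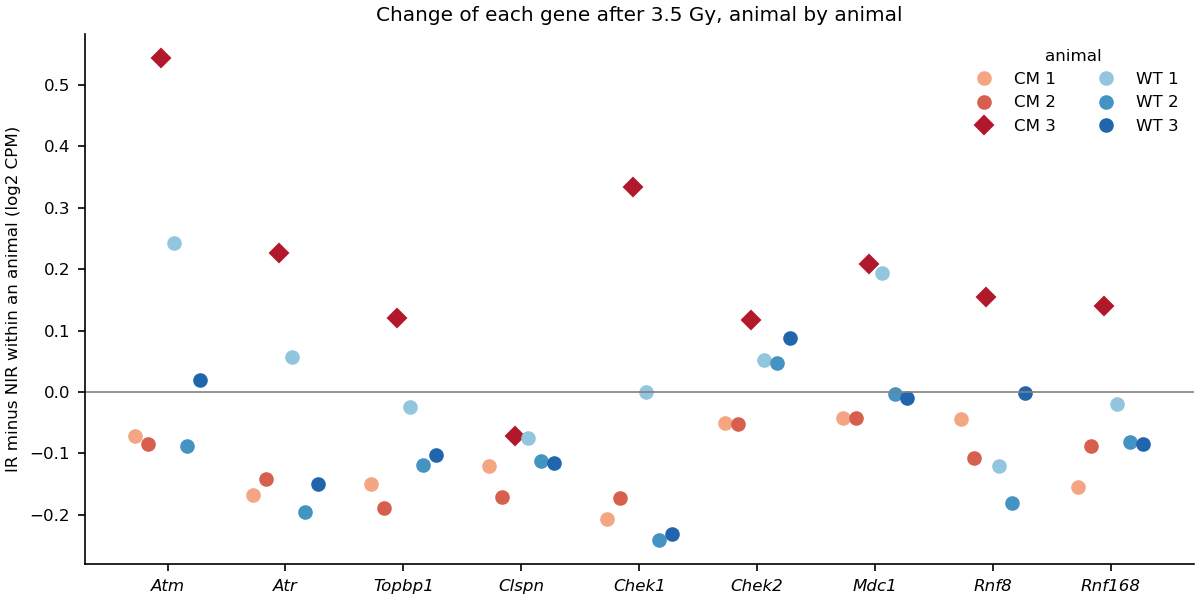
IR minus NIR in log2 CPM (y axis) for the 9 genes, with 1 point per animal. CM animal 3 is the highest point for each gene, and Clspn is the gene with all 6 animals below 0.

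CM animal 3 had the highest IR minus NIR change of the 6 animals in 9 of 9 genes, a pattern seen after its values were plotted. Of all genes tested, 31.5% had their highest change in that animal. The labels give its 2 libraries 1 animal number, but their deviations from the group means correlated across genes at only 0.125, against 0.412 to 0.844 in the other 5 pairs. Whether both come from 1 animal was not tested, and its IR minus NIR values carry that limit. For Atm the change was 0.54 in CM animal 3, against -0.07 and -0.09 in CM animals 1 and 2 and -0.09 to 0.24 in WT animals. For Chek1 it was 0.33, against -0.21 and -0.17 in the other CM animals and -0.24 to 0.0003 in WT animals. The mast cell and basophil list summed to 803 CPM in its IR library and 1516 CPM in its NIR library. The part of this difference in the gene values was not tested. Leaving out CM animal 3, with the remaining 5 animals as blocks, the averaged log2 changes were -0.12 ± 0.03 for Clspn, -0.12 ± 0.03 for Topbp1 and -0.17 ± 0.05 for Chek1 (edgeR adjusted p = 0.0798, 0.0992 and 0.11). None of the 9 genes passed in that fit. Of the 14599 genes tested, 0 passed there in CM, 524 in WT and 481 averaged.

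Between the genotypes, 8 of the 9 genes were fitted lower in CM than in WT cells, with and without irradiation, and Rnf8 was fitted higher, but none passed. Without irradiation 1.62% of all genes tested passed in edgeR, and after irradiation 0.664%. None of the 9 had an unadjusted p under 0.05, which 15.1% and 11.8% of all genes had, and DESeq2 and limma-voom called 0. Medians over the 9 genes were -0.15 without irradiation and -0.14 after it, against 0.0172 and 0.0178 over all genes. Fitted values below 0 were common in the table, at 47.4% and 47.1% of all genes.

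Atm had the largest fitted difference. Its mean was 130 ± 30.2 CPM in CM NIR and 179 ± 38.8 CPM in WT NIR (SD, n = 3 each). After irradiation it was 142 ± 30.1 CPM in CM IR and 184 ± 23.4 CPM in WT IR. The log2 fold change of CM over WT was -0.46 ± 0.22 without irradiation (SE, 95% interval -0.94 to 0.03, edgeR unadjusted p = 0.0642, adjusted p = 0.372) and -0.37 ± 0.22 after it (-0.86 to 0.12, adjusted p = 0.58). The groups overlapped: CM NIR animal 2, at 165 CPM, exceeded WT NIR animal 1 at 133.7 CPM. CM IR 1, CM NIR 1 and CM NIR 3 had stood apart and held the most mast cell and basophil marker RNA. Atm, Atr, Chek1 and Chek2 had their 3 lowest values in these same libraries. This was noticed in the values, and 14.1% of all genes tested had that pattern. Without CM animal 1 the Atm differences were -0.38 ± 0.22 and -0.22 ± 0.22, and without CM animal 3 they were -0.36 ± 0.25 and -0.48 ± 0.25, without and after irradiation. Library numbers fall into 2 series that split each genotype, and with the series as a term the differences were -0.35 ± 0.22 and -0.29 ± 0.22. The part of the mast cell, basophil and macrophage markers in these values was not tested.

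Rnf168 was the gene with separate groups, its 3 CM NIR libraries (17.6 to 17.7 RPKM) lying below the 3 WT NIR libraries (18.2 to 21.9 RPKM). Of all genes tested, 7.84% were lower and 8.14% higher without overlap in this comparison. After irradiation CM and WT overlapped for all 9 genes, where 8.36% of all genes were lower and 9.23% higher without overlap. The log2 fold change was -0.19 ± 0.10 (edgeR adjusted p = 0.402), and after irradiation it was -0.16 ± 0.10 (adjusted p = 0.602). Atr and Chek1 differed by -0.26 ± 0.18 and -0.29 ± 0.18 without irradiation and by -0.18 ± 0.18 and -0.13 ± 0.18 after it. Clspn was nearest to equal, at -0.03 ± 0.09 and -0.05 ± 0.09. The 95% intervals lay within 2-fold for all 9 genes in both comparisons, and within 1.5-fold for 5 without irradiation and 6 after it.

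**Figure D3:**
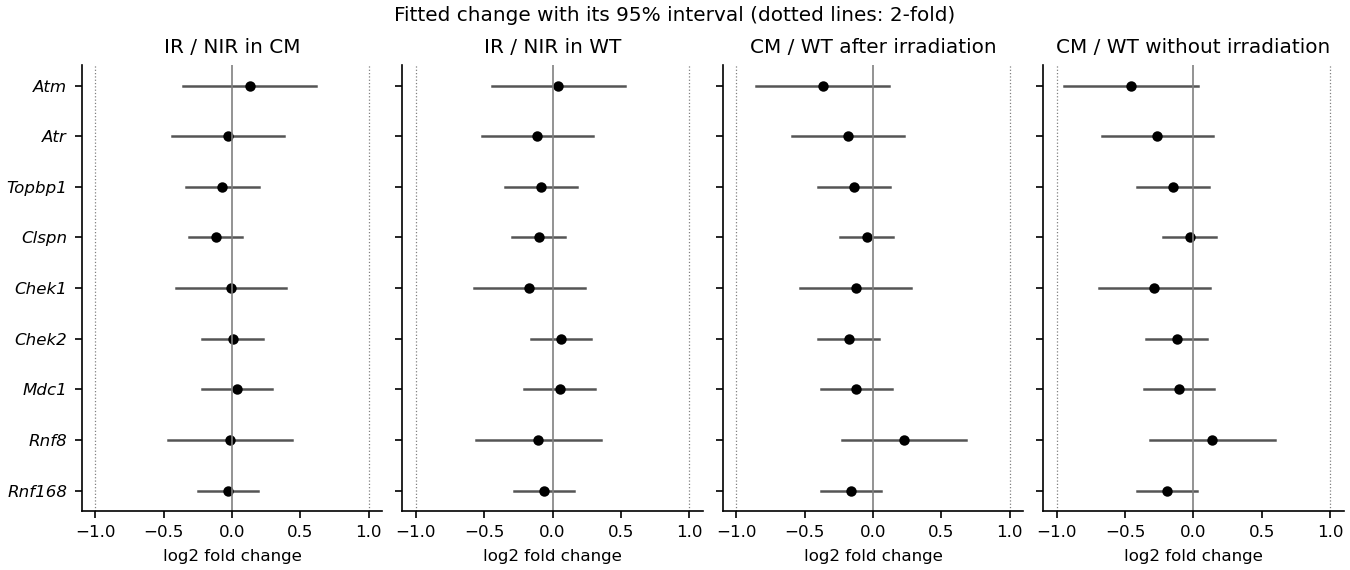
Fitted log2 fold change (points) with its 95% interval (bars) for the 9 genes, for IR over NIR in CM and in WT and for CM over WT after and without irradiation, with dotted lines at 2-fold. All intervals in the 4 panels, from the fit without an animal term, include 0, and the widest are those of Atm.

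**Figure D4:**
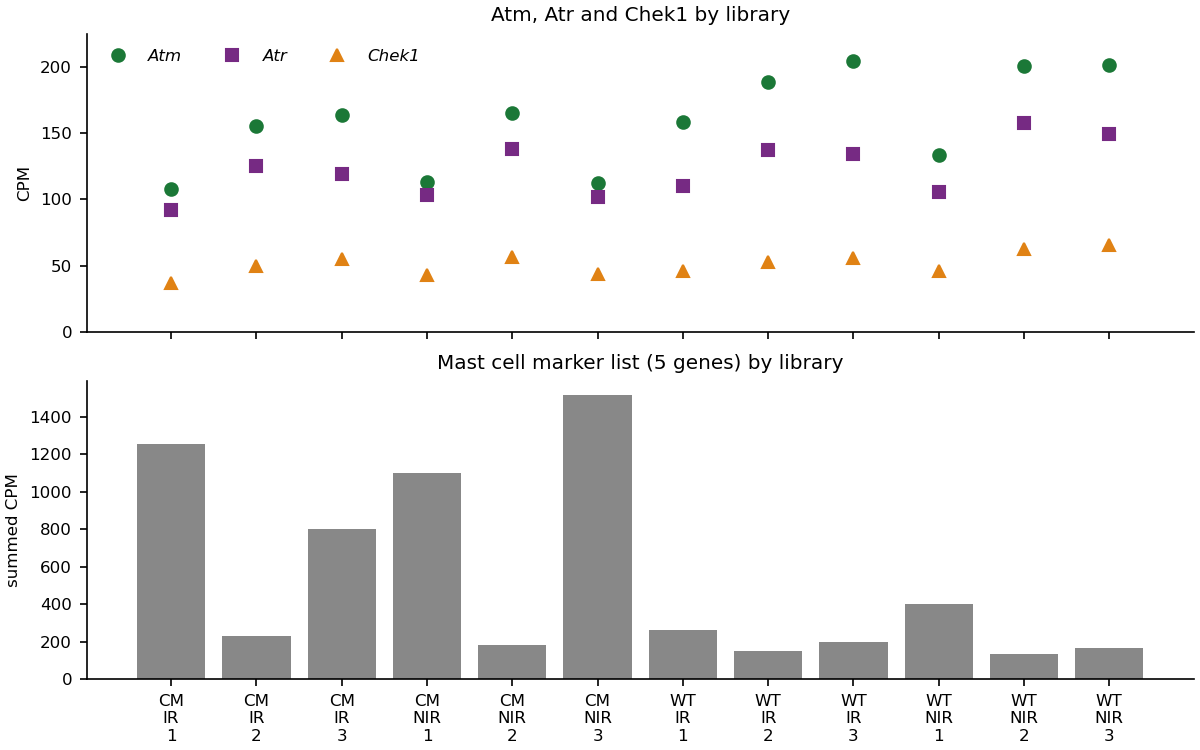
CPM of Atm, Atr and Chek1 (upper panel) and summed CPM of 5 mast cell and basophil genes (lower panel) in the 12 libraries. Both CM animal 1 libraries and CM NIR 3 hold the lowest values of the 3 kinase genes and sums of 1100 to 1516 CPM.

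The irradiation response of the 9 genes was not shown to differ between CM and WT cells. The difference of the log2 changes, CM minus WT, ran from -0.06 for Chek2 to 0.16 for Chek1 (0.16 ± 0.26, 95% interval -0.41 to 0.74). In edgeR 0 of 9 passed, against 0% of all genes tested, and 0 had an unadjusted p under 0.05 (0.726% of all genes). With the animal as a block both counts were again 0, against 0% and 2.86% of all genes. The fitted difference was below 0 in 3 of 9, against 46.6% of all genes. DESeq2 and limma-voom called 0 of the 9. Without an animal term, the interval of the difference lay within 1.5-fold for 5 genes (Topbp1, Clspn, Chek2, Mdc1 and Rnf168) and within 2-fold for all 9.

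Around these genes, 42 other damage signalling genes were in the table and 41 were tested. In the averaged irradiation contrast 32 of 41 were fitted lower, against 50.9% of all genes tested, with a median of -0.06 against -0.00243 over all genes. Without a block 0 passed in edgeR, against 0.308% of all genes, and with the animal as a block 1 passed (Rnf169), against 2.07%. The 3 genes of the MRN complex, which tethers broken ends and recruits ATM, were fitted at -0.08 to -0.06, and the 6 genes of the 9-1-1 clamp and its partners at -0.14 to 0.07.

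Rnf169, whose protein reads the ubiquitin marks that RNF168 writes, was the exception in size. It had 78.2, 97.7 and 85.6 CPM in CM IR animals 1, 2 and 3, against 69.1, 79.5 and 65.6 CPM in CM NIR. In WT IR it had 102.7, 113.5 and 111.1 CPM, against 65.8, 81.8 and 75.3 CPM in WT NIR. It was higher after irradiation in 6 of 6 animals, as were 5.93% of all genes tested. In WT the groups did not overlap, as for the 7.47% of all genes that were higher without overlap. The averaged log2 change was 0.42 ± 0.08 in edgeR (adjusted p = 0.0976) and passed with the animal as a block, at 0.42 ± 0.04 (adjusted p = 0.00931), as it did in DESeq2 (adjusted p = 0.00105) and in limma-voom with the animal as a random block (adjusted p = 0.0007). With the block the change was 0.29 ± 0.06 in CM (adjusted p = 0.396) and 0.56 ± 0.06 in WT (adjusted p = 0.0175), and the difference between them did not pass (-0.27 ± 0.08, adjusted p = 1). Rnf168 itself had -0.03 ± 0.06 in CM and -0.06 ± 0.06 in WT in the same fit.

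The next smallest p in the averaged contrast were those of the phosphatases Cdc25b (-0.25 ± 0.12) and Cdc25c (-0.15 ± 0.08), which activate cyclin-dependent kinases and are restrained by checkpoint signalling, and of the deubiquitinase Usp28 (-0.19 ± 0.11), each with an edgeR adjusted p of 1. Between genotypes, Cdc25b had 69.9 ± 10.9 CPM in CM NIR and 41.4 ± 1.65 CPM in WT NIR (SD, n = 3). The difference, 0.75 ± 0.17 in log2, missed in edgeR (adjusted p = 0.0649) and in limma-voom (0.127) and passed in DESeq2 (0.006). After irradiation it was 0.54 ± 0.17 (adjusted p = 0.207), with 54.8 ± 14.9 CPM in CM IR and 37.7 ± 1.46 CPM in WT IR. That difference was 0.29 without CM IR 1 and 0.27 without both libraries of CM animal 1. The other genes named by smallest p without irradiation were Rad9b, Rhno1 and Herc2, and none passed in any of these tools. Rad9b, a paralog of the clamp subunit RAD9A, was fitted at -0.81 ± 0.34. Rhno1, which binds the clamp and TOPBP1, was at 0.29 ± 0.13, and Herc2, a ligase that works with RNF8, at -0.17 ± 0.09. After irradiation Rnf169 (-0.32 ± 0.12), Rhno1 (0.30 ± 0.13) and Herc2 (-0.18 ± 0.09) were named and did not pass, with edgeR adjusted p of 0.265 to 0.468.

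Proliferation markers were read in the same libraries. Of 20 G2/M genes, 19 were fitted lower after irradiation in the averaged contrast, with a median of -0.14, and of 23 S phase genes 20 were, with a median of -0.04, against 50.9% fitted lower and a median of -0.00243 over all genes. None passed in edgeR without a block, where 0.308% of all genes did. With the animal as a block 4 G2/M genes and 1 S phase gene passed, against 2.07% of all genes: Top2a, Mki67, Cenpe and Kif11 fell by 0.17, 0.21, 0.17 and 0.17 on the log2 scale (adjusted p = 0.0479, 0.0434, 0.036 and 0.0429) and Ccne2, cyclin E2, fell by 0.24 (0.041).

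**Figure D5:**
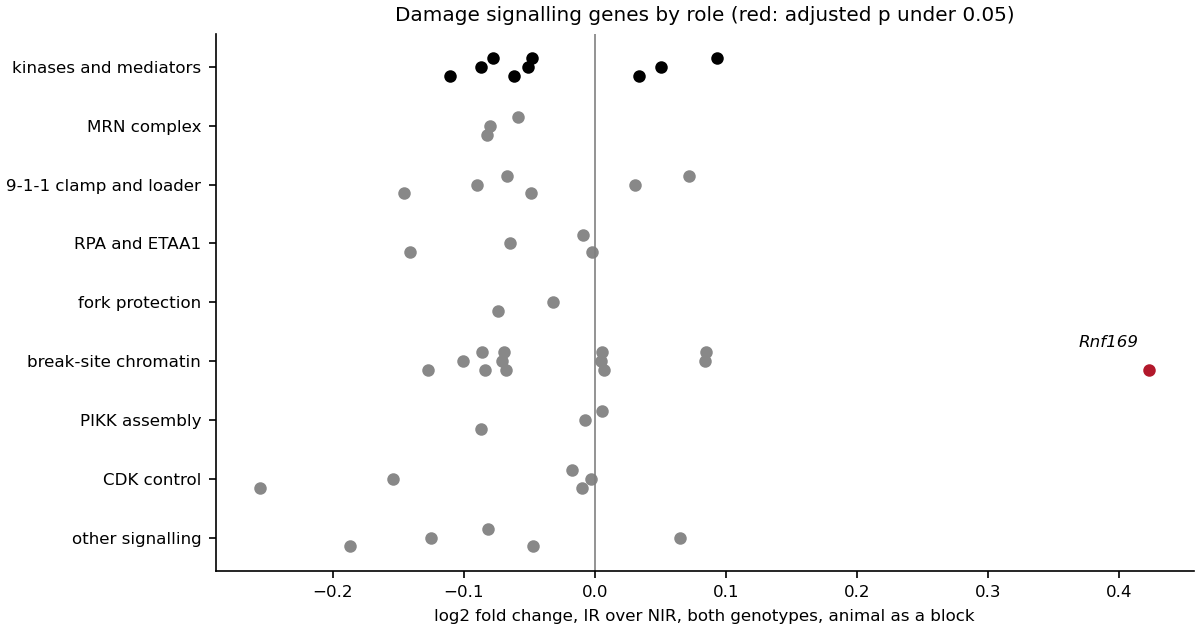
Log2 fold change of IR over NIR averaged over CM and WT, with the animal as a block (x axis), for the 9 kinases and mediators (black) and 41 other damage signalling genes (grey) by role. Rnf169, in red, is the gene with an adjusted p under 0.05, at 0.42, and the 9 kinases and mediators lie between -0.11 and 0.09.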

How the data were processed

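Per the labels' protocols, ribosomal RNA was removed and the libraries (KAPA RNA HyperPrep) were stranded. The submitters' processing notes name build mm10 and the tools HTSeq 0.6.1p1, TopHat2 and bcl2fastq 2.18.0.12. The strand setting, the annotation release and how ambiguous reads were counted: not given in the sources used here. The authors' deposited count table holds whole-number counts per gene, and their deposited RPKM table holds the same libraries scaled by exon length and library size. No column belonged to another sample. The 10 genes and the other lists were chosen with earlier results of these data known.

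Counts were fitted in R 4.3.3 with edgeR 4.0.16 (filterByExpr, minimum count 10 and minimum total 15, TMM, quasi-likelihood test) over all 12 libraries with 1 mean per group and no animal term, with Benjamini-Hochberg adjustment of p-values over 14599 genes and a threshold of 0.05. CPM are TMM-scaled, and log2 CPM used a prior count of 2. The biological coefficient of variation was 0.29. Errors of fold changes are SE from this fit. Total gene counts were 68.5 to 110.8 M per library, and the counts of Rnf8 and Atrip-trex1 are low.

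The labels give each IR and NIR pair 1 animal number, and deviations from the group means correlated within pairs at 0.79, 0.844 and 0.125 in CM and 0.672, 0.504 and 0.412 in WT, so the animal was used as the replicate block in an alternative fit. The labels number the animals separately, so n counts animals. Other alternatives were DESeq2 1.42.0, limma 3.58.1 (voom, and log2 of RPKM plus 0.1 or 1), RLE scaling, no filter, the library number series, each library left out in turn and CM animals left out. The tests were checked on simulated counts drawn with no animal effect and with changes of at least 2-fold in WT IR. That check does not cover smaller changes or the pairing within animals. Named genes were all 10, Cdkn1a, Mdm2 and Trp53inp1 as an irradiation check, damage signalling genes past the threshold or else the 4 with the smallest p per contrast, the 2 closest profiles for the 4 most variable genes, and the first genes of marker lists. The 5 proliferation genes were named after their values were seen. Promoters came from RefSeq (GRCm38.p6). A protein comparison was not made here.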

Additional observations from a re-analysis of the deposited data

How the results depend on the processing

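None of the 9 tested genes passed in any comparison under any of the 24 alternative settings (136 counts, all 0); the lowest adjusted p was 0.0715, for Clspn averaged over genotypes in limma-voom. Of 1224 refitted log2 fold changes, 88 changed sign, 0 of them where the value first reported lay over 1 SE from 0, and the largest shift was 0.217. Of 36 group means in RPKM, 1 moved by more than its SD when TMM sizes were used (Rnf168 in CM NIR, 18.0 against 17.7 RPKM). The widest 95% intervals reached 0.671-fold and 1.53-fold for irradiation and 0.52-fold and 1.61-fold between genotypes. The cause of the shifts below was not tested.

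Counts over all genes moved more. For IR against NIR in CM, in WT and averaged, they were 1, 17 and 45 as reported, 0, 163 and 302 with the animal as a replicate block, 18, 140 and 169 in DESeq2, 4, 438 and 693 in limma-voom with the animal as a random replicate block, 0, 1 and 4 without both libraries of CM animal 3, and 0, 524 and 481 with the animal as a replicate block and without CM animal 3. Without CM animal 1 they were 7 in WT and 27 averaged, and limma on log2(RPKM + 0.1) and on log2(RPKM + 1) gave 40 and 52 in WT. For CM against WT without and after irradiation, the reported 237 and 97 became 922 and 652 in DESeq2, 5 and 13 in limma-voom, 143 and 207 without CM animal 3 and 32 and 4 without CM animal 1. After irradiation the count was 14 with library number series and 162 with limma on log2(RPKM + 1), which also called 1 gene for the difference of responses. CM and WT libraries of 1 title number come from different animals, whose deviations correlated at 0.528, 0.382 and -0.365 without irradiation and 0.39, 0.128 and 0.142 after it. The labels give no shared animal or litter for them, though the library numbers fall into the same of 2 series for CM and WT animals of title numbers 1 and 3, and not for number 2. With the title number as a replicate block the counts were 854 and 416. Leaving out 1 library at a time gave 0 (without CM NIR 3) to 3 (without CM IR 2) in CM, 1 (without WT NIR 3) to 49 (without CM IR 2) in WT and 7 (without WT NIR 3) to 50 (without CM IR 1) averaged. It gave 4 (without CM NIR 3) to 918 (without CM NIR 2) between genotypes without irradiation and 3 (without WT IR 1) to 271 (without CM IR 3) after it.

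Among the 9 genes, the signs that turned were these. In CM after irradiation, Chek2 was -0.00205 in DESeq2 and -0.00201 with RLE scaling, and Rnf8 was 0.00786 and 0.00132 with limma on RPKM plus 0.1 and plus 1. With library number series, Clspn in CM against WT was 0.0226 without irradiation and 0.00184 after it. Without CM animal 3, changes in CM were -0.0698 for Atm, -0.0424 for Chek2 and -0.0341 for Mdc1, Atm averaged was -0.0135, and differences of responses were -0.113 for Atm, -0.0338 for Atr, -0.0785 for Topbp1, -0.00957 for Chek1 and -0.0509 for Rnf168. With the animal as a replicate block as well, the same values were -0.0698, -0.0429 and -0.0345 in CM, -0.00498 for Atm averaged, and -0.13, -0.0509, -0.0807, -0.0248 and -0.053 for the differences. Without CM animal 1, changes in CM were 0.0136 for Atr, 0.0548 for Chek1 and 0.0152 for Rnf168, Chek1 in CM against WT after irradiation was 0.000536, and the difference for Mdc1 was 0.0172. The fits without CM animal 1, and with the block but without CM animal 3, were chosen after seeing the data.

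Leaving out 1 library at a time turned the sign of further values, with these ranges. For IR against NIR in CM they were -0.113 to 0.126 for Atr, -0.142 to 0.0134 for Topbp1, -0.126 to 0.14 for Chek1, -0.0409 to 0.0806 for Chek2, -0.0326 to 0.129 for Mdc1, -0.176 to 0.132 for Rnf8 and -0.122 to 0.0272 for Rnf168. In WT they were -0.129 to 0.138 for Atm, -0.268 to 0.00131 for Atr and -0.0506 to 0.118 for Mdc1. Averaged, they were -0.000272 to 0.189 for Atm, -0.148 to 0.00797 for Atr, -0.00684 to 0.0913 for Mdc1 and -0.139 to 0.0144 for Rnf8. For CM against WT they were -0.0953 to 0.0221 for Clspn and -0.00763 to 0.301 for Rnf8 without irradiation, and -0.244 to 0.0181 for Chek1 after it. Differences of responses ran from -0.0242 to 0.295 for Atm, -0.0281 to 0.239 for Atr, -0.0576 to 0.101 for Topbp1, -0.0733 to 0.0486 for Clspn, -0.107 to 0.0166 for Chek2, -0.0876 to 0.0875 for Mdc1, -0.0745 to 0.236 for Rnf8 and -0.0584 to 0.104 for Rnf168.

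Among other named genes, Mdm2 in WT missed the threshold without any 1 WT library, without CM NIR 1, and without either of CM animals 1 and 3. Averaged, it missed without WT NIR 3 (adjusted p = 0.0531) and without CM animal 3 (0.0518). Trp53inp1 in CM missed without CM NIR 3 (0.0523) and without CM animal 3 (0.273). Cdc25b in CM against WT without irradiation passed in edgeR with the title number block (0.0223) and without CM NIR 2 (0.0266), CM IR 1 (0.0164) or CM IR 2 (0.0491). It missed in edgeR with library number series (0.0959), without CM animal 1 (0.0872) and without CM animal 3 (0.17). Usp28 averaged passed with the animal as a block and without CM animal 3 (0.0479), and Rnf169 in CM against WT after irradiation with the title number block (0.047).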
